A study of Mus musculus with 4 samples.

Results

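The aryl hydrocarbon and retinoid response genes described here are a set of 10 of the 32285 genes in the deposited count matrix: Ahr, Ahrr, Cyp1a1, Cyp1b1, Tiparp, Nqo1, Cyp26b1, Aldh1a1, Aldh1a2 and Aldh1a3. They were chosen by symbol with their levels in these cells already known, so the levels below are a description and carry no test. The study dissected collecting lymphatic vessels, with the tissue around them, from C57BL/6J mice aged 12 to 14 weeks, 4 male and 4 female. Vessels of 4 body regions were combined for each mouse, and cells were captured by droplet single-cell RNA sequencing with a gene expression and a multiplexing-tag library for each sex. The labels name no genotype or treatment that differs between the animals, and no label ties a barcode to a mouse or a sex, so the matrix was described as 1 pooled sample.

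The matrix held 24046 barcodes with a median of 8684.5 UMIs (distinct captured RNA molecules) and 2866 genes each, and 22947 cells were kept. Barcodes carry a suffix from 1 to 8, with 2375 to 3315 barcodes each. These suffixes are unlabelled samples: their lowest, median and highest values are given, with the number of suffixes that show an order and the suffix on which a level rests. No barcode sequence was shared within suffixes 1 to 4 or within suffixes 5 to 8, and 44 were shared between those sets. Cells were classed by marker genes, and no gene of the set was a marker. This gave 8821 fibroblasts, 6648 macrophages, 1486 smooth muscle cells, 747 mesothelial cells, 711 dendritic cells, 550 Prox1-positive endothelial cells and 291 blood endothelial cells, smaller classes, and 2180 cells left ungated. Prox1-positive endothelium needed 1 UMI of Prox1, the master regulator of lymphatic identity, and 52 of its 550 cells had exactly 1. Blood endothelium needed no Prox1 UMI and at least 3 of 10 blood endothelial markers. Lymphatic markers that the gate did not use were found in Prox1-positive endothelium more often than in blood endothelium: Flt4 in 80.2% of cells against 14.8%, and Mmrn1 in 83.1% against 4.81%. Among the blood endothelial markers, Plvap (89.8% against 54.3%), Ptprb, Cyyr1, Emcn and Vwf were also found more often in Prox1-positive cells. These shares were not matched for depth. Flt1 (24.5% against 90.7%), Sox17, Rgcc, Ackr1 and Selp were found less often. Levels are given as CPM, the summed UMIs of a gene per 1000000 UMIs of a class, with exact Poisson 95% intervals in brackets. These intervals, and those of shares and ratios, cover counting error only. By CPM, Plvap (856 against 895), Ptprb (692 against 980) and Vwf (165 against 185) were lower in Prox1-positive than in blood endothelium. Cyyr1 (1452 against 1265) and Emcn (708 against 531) were higher.

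The aryl hydrocarbon receptor, Ahr, is a ligand-activated transcription factor that binds pollutants, dietary indoles and tryptophan products, pairs with Arnt and switches on detoxifying enzymes through the xenobiotic response element. Retinoic acid is a vitamin A product made by Aldh1a enzymes, sensed by nuclear receptors and destroyed by Cyp26 enzymes. It is known to take part in lymphatic endothelial specification, and Cyp26b1 is known to limit it there.

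The promoter windows of 4 genes are shown because these genes moved together, or apart, in the cells below: the target Cyp1a1, the repressor Ahrr, the fibroblast target Cyp1b1 and the retinoic acid enzyme Cyp26b1. Each runs 5′ to 3′ on the gene's strand up to the RefSeq start (GRCm38.p6). Only the part of the Cyp26b1 window outside GENCODE exons, 152 bases, is shown, and its bases nearest the RefSeq start are left out. Capitals mark the xenobiotic response element core, GCGTG, or CACGC where it lies on the other strand. The Cyp1a1 window is chr9:57697363-57697612 on the plus strand and, in the GENCODE annotation, lies inside the gene model. The others are on the minus strand and end at the base before the annotated gene: Ahrr chr13:74292332-74292581, Cyp1b1 chr17:79715062-79715311 and Cyp26b1 chr6:84593909-84594060.
Cyp1a1: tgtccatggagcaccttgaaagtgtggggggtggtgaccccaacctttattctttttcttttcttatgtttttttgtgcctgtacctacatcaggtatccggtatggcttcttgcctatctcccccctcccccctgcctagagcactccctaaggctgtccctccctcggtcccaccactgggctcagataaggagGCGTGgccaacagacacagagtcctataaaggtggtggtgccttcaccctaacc
Ahrr: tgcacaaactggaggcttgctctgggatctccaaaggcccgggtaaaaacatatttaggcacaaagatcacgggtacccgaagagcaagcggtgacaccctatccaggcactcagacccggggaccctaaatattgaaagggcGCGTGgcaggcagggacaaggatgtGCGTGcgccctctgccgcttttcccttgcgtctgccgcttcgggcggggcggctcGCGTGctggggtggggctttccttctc
Cyp1b1: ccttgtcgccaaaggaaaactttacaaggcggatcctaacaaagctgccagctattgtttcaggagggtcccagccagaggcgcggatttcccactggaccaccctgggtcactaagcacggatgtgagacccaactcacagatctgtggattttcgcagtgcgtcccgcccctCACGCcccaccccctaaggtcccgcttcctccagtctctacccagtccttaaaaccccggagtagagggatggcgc
Cyp26b1: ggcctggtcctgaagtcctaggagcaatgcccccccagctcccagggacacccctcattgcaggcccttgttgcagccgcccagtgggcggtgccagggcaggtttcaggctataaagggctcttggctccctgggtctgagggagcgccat

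RefSeq promoter windows of 250 bases were found for 8 of the 10 genes. The core was present 3 times for Ahrr, at 107 to 103, 82 to 78 and 27 to 23 bases before the start, and once each for Cyp1a1, Cyp1b1, Tiparp and Aldh1a2. In Cyp1a1 it lay 54 to 50 bases before the start. Among all 32851 promoter windows of this length, 28.2% held at least 1 core and 2.77% held 3 or more, so a single match is common. GCGTG is also one form of the hypoxia response element. The windows of Nqo1, Cyp26b1 and Aldh1a1 held none. The antioxidant response element core, TGACNNNGC on either strand, was found only in Aldh1a2 among these genes, against 10.2% of all windows. Retinoic acid direct repeats with 5 spacer bases (found in 0.776% of all windows) or 2 (0.886%) were searched for on both strands, and were found in none of the 8. A match is a description of the letters in the window, and sequence beyond the 250 bases was not searched.

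The receptor gene Ahr was highest in dendritic cells and endothelium and lowest in fibroblasts. Its level was 191 CPM (182 to 201) in dendritic cells, 124 (109 to 140) in blood endothelium, 113 (78.3 to 158) in Schwann cells and 102 (95.1 to 109) in Prox1-positive endothelium. The intervals of the last 3 overlapped between neighbours, while the next class, mast cells at 45.7, was lower. Across suffixes, Ahr in Prox1-positive endothelium was 69.6 at the lowest, 104 at the median and 130 at the highest, and in fibroblasts it ran from 3.30 to 9.36. The ranges did not overlap, and the pooled levels differed 17.9-fold (16.1 to 19.9). Blood endothelium ran from 57.2 to 164, which overlaps the Prox1-positive range, and Prox1-positive endothelium was higher in only 2 of 8 suffixes, at a ratio of 0.82 (0.71 to 0.95). A UMI of Ahr was seen in 53.3% of Prox1-positive cells, and in 16.7% after every cell was thinned to 2000 UMIs. The same share in fibroblasts was 4.52% as counted (median depth 11089 UMIs, against 9622.5) and 0.994% thinned. Among graph clusters, which were chosen here after their values were seen, the level was 289 CPM (273 to 306) in cluster 21, led by the cross-presenting dendritic cell genes Xcr1 and Clec9a.

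Ahrr encodes the repressor that competes with Ahr for Arnt and is itself an Ahr target. It was scarce and highest in 2 classes: macrophages at 6.68 CPM (5.97 to 7.45, 321 UMIs) and Prox1-positive endothelium at 5.13 (3.73 to 6.88, 44 UMIs in 20 cells). The intervals overlapped. Blood endothelium had no UMI, which allows up to 1.89 CPM at the interval's upper bound, and fibroblasts had 0.15. The 8 suffixes ranged from 0 to 14.0 in Prox1-positive endothelium and from 4.49 to 8.53 in macrophages.

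Cyp1a1, the monooxygenase that is the classical read-out of the activated receptor, was an endothelial transcript in these vessels. Its level was 78.1 CPM (72.3 to 84.2) in Prox1-positive endothelium and 44.0 (35.2 to 54.3) in blood endothelium. Every other class of at least 50 cells was at 0.466 or lower, and in 47 pericytes 1 cell held 6 UMIs. Few cells carried it: 72 of 550 Prox1-positive cells (13.1%) held 670 UMIs, up to 59 in a cell, and 31 of 291 blood endothelial cells (10.7%) held 86. The share was 0.193% in fibroblasts and 0.0602% in macrophages, at median depths of 11089 and 6950 UMIs. The level in Prox1-positive endothelium was 38.9, 66.0 and 251 CPM at the lowest, median and highest suffix, and that in blood endothelium 0, 27.2 and 120. One suffix stood high in each, suffix 2 and suffix 7, and without suffix 7 the blood endothelial level was 26.5. Prox1-positive endothelium was higher in 7 of 8 suffixes, with a pooled ratio of 1.77 (1.42 to 2.25). That order did not hold under another summary: the mean of per-cell CPM was 50.9 in Prox1-positive and 74.9 in blood endothelium. The thinned shares of cells were 6.61% and 7.48%.

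**Figure D1:**
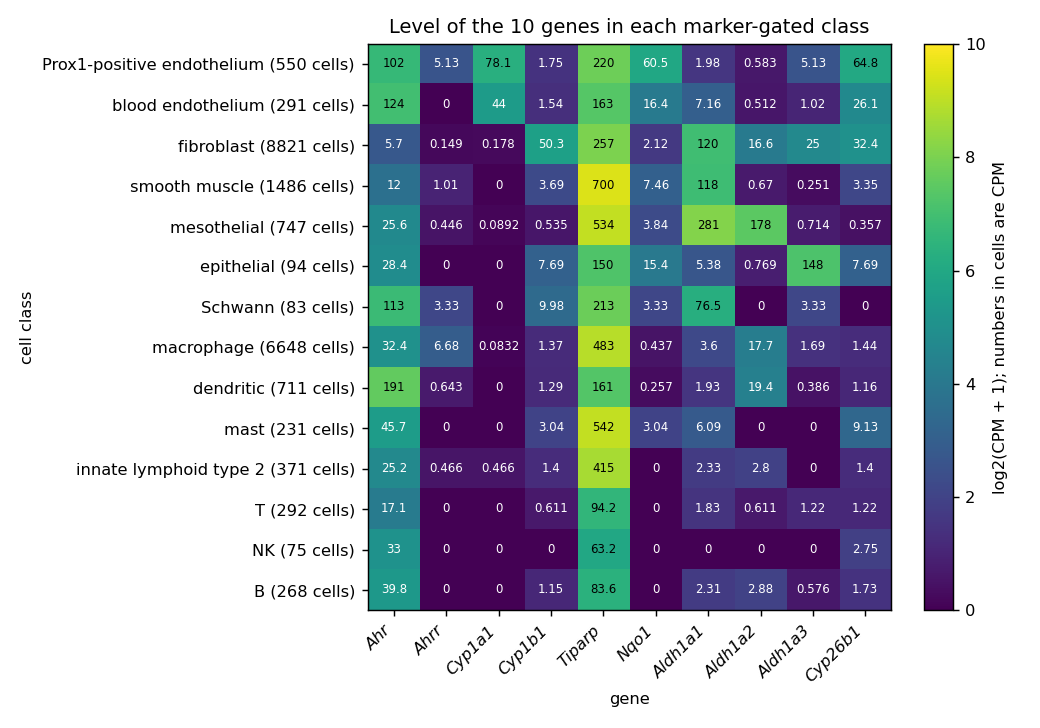
Level of each gene (columns) in the 14 marker-gated classes with at least 50 cells (rows); colour is log2(CPM + 1) and the printed numbers are CPM of summed UMIs. Cyp1a1 and Nqo1 are highest in Prox1-positive endothelium, at 78.1 and 60.5 CPM, while Aldh1a1 and Aldh1a2 are highest in mesothelial cells, at 281 and 178.

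Nqo1, a quinone reductase switched on by both Ahr and the oxidant sensor Nrf2, was likewise highest in Prox1-positive endothelium, but in many more cells. The level was 60.5 CPM (55.4 to 65.9), with 519 UMIs in 245 cells (44.5%), against 16.4 (11.2 to 23.1) in blood endothelium and 2.12 in fibroblasts. The suffix values were 35.6, 62.3 and 100 (lowest, median, highest) in Prox1-positive endothelium and 3.58 to 30.6 in blood endothelium. The ranges did not overlap, the order was the same in 8 of 8 suffixes, and the pooled ratio was 3.69 (2.58 to 5.46). Thinned to equal depth, 11.9% of Prox1-positive and 3.15% of blood endothelial cells had a UMI, against 0.0803% of macrophages.

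Cyp1b1, a related Ahr target that also oxidises oestrogens and retinoids, had the opposite distribution. It was 50.3 CPM (49.0 to 51.7) in fibroblasts, 1.75 in Prox1-positive and 1.54 in blood endothelium. The fibroblast suffixes ran from 30.3 through 52.8 to 70.2, and those of Prox1-positive endothelium from 0 to 9.34, with no overlap. So the classes with the most Cyp1a1 had almost no Cyp1b1, and fibroblasts had the reverse. Tiparp, an ADP-ribosyltransferase that is an Ahr target and shuts the receptor off, was present in every class. Among classes of at least 50 cells it was highest in smooth muscle at 700 CPM (685 to 715; suffixes 554 to 994) and 220 (210 to 230; suffixes 170 to 310) in Prox1-positive endothelium, which ranked in the middle. In 47 pericytes it was 995 (879 to 1122).

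**Figure D2:**
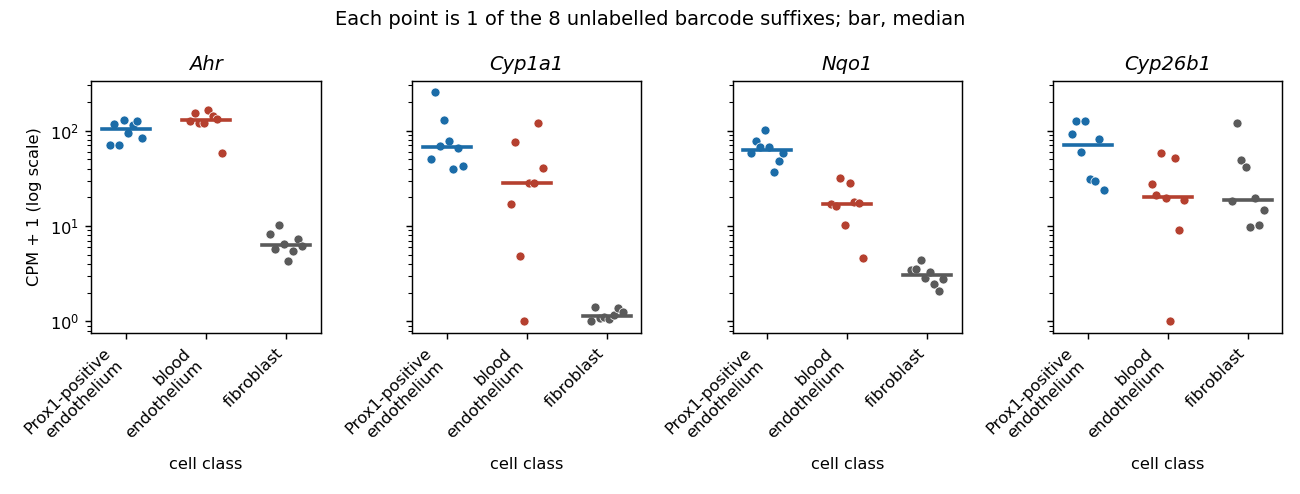
CPM + 1 on a log axis for Ahr, Cyp1a1, Nqo1 and Cyp26b1 in Prox1-positive endothelium, blood endothelium and fibroblasts; each point is 1 of 8 unlabelled barcode suffixes and the bar is their median. For Nqo1 the 8 Prox1-positive values, from 35.6 to 100 CPM, lie above the 8 blood endothelial values, from 3.58 to 30.6; for Cyp1a1 and Cyp26b1 these groups overlap.

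The 3 enzymes that make retinoic acid from retinaldehyde were found in mesothelium, stroma and epithelium, and hardly in endothelium. Aldh1a1 was 281 CPM (272 to 291) in mesothelial cells, where 89.8% of cells had a UMI, 120 (118 to 123) in fibroblasts and 118 (112 to 125) in smooth muscle. The pooled ratio of fibroblasts to smooth muscle was 1.02 (0.96 to 1.07), yet fibroblasts were higher in 7 of 8 suffixes. The exception was suffix 7, with 204 CPM in smooth muscle against 132 in fibroblasts. Mesothelial cells exceeded fibroblasts in 8 of 8 suffixes. The mesothelial suffixes were 155, 272 and 360 at the lowest, median and highest. In Prox1-positive endothelium Aldh1a1 was 1.98 CPM. In 2 smooth muscle clusters, singled out after their values were seen, Aldh1a1 was 149 CPM in cluster 6, led by Actc1, Actg2 and Myocd, and 5.57 in cluster 20, led by Pln and Xirp1.

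Aldh1a2, the main retinoic acid enzyme of the embryo, was highest in mesothelial cells among classes of at least 50 cells: 178 CPM (170 to 186; suffixes 150, 178 and 214) with a UMI in 81.8% of cells. Dendritic cells (19.4), macrophages (17.7) and fibroblasts (16.6) followed, and Prox1-positive endothelium had 5 UMIs in all (0.583 CPM). Within the myeloid clusters, again chosen after the fact, cluster 11, led by Lyz1 and Ear2, had 152 CPM (143 to 162). Aldh1a3 was highest in epithelial cells at 148 CPM (128 to 171), but there it rested on 15 of 94 cells, 1 of which held 86 of the 193 UMIs. Its suffixes ran from 3.47 to 425, and without suffix 3 the level was 66.7. In fibroblasts Aldh1a3 was steadier, with an interval of 24.1 to 26.0 CPM and suffixes from 16.5 to 33.1, and in Prox1-positive endothelium it was 5.13.

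Cyp26b1, the hydroxylase that clears retinoic acid, was highest in Prox1-positive endothelium among classes of at least 50 cells. The level was 64.8 CPM (59.5 to 70.4), from 556 UMIs in 85 cells (15.5%), against 32.4 (31.3 to 33.5) in fibroblasts and 26.1 (19.4 to 34.3) in blood endothelium. The suffixes were 23.1, 69.9 and 127 in Prox1-positive endothelium, 8.67, 18.0 and 120 in fibroblasts and 0, 19.3 and 57.4 in blood endothelium, so all 3 ranges overlapped. Within suffixes, Prox1-positive endothelium was above fibroblasts in 8 of 8, with a pooled ratio of 2.00 (1.83 to 2.19), and above blood endothelium in 7 of 8, at 2.48 (1.86 to 3.38). The fibroblast level fell to 20.2 without suffix 2. Macrophages, as a class that should lack the gene, had a UMI in 0.993% of cells.

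Within Prox1-positive endothelium the levels differed between sub-gates. The lymphatic capillary list (3 of Lyve1, Ccl21a, Piezo2, Reln and Kcnn3) alone was met by 46 cells. Another 225 cells met only the valve list (3 of Cldn11, Foxc2, Itga9, Gata2 and Neo1), a gate that deeper cells pass more easily. Both lists were met by 16 cells and neither by 263. The 46 cells that met the capillary list alone had no Cyp1a1 UMI and 1 Cyp26b1 UMI. The 16 cells that met both lists had 22 Cyp1a1 UMIs, all in 1 cell, and 12 Cyp26b1 UMIs in 1 cell, so over all 62 cells that met the capillary list the levels were 25.8 CPM (16.2 to 39.0) and 15.2 (8.11 to 26.0). Cells that met the valve list alone had 85.7 CPM of Cyp1a1 (78.0 to 93.9) and 75.4 of Cyp26b1 (68.2 to 83.1), and cells outside both gates 79.9 (68.9 to 92.1) and 58.8 (49.5 to 69.4). Ahr was also lower in the 46 cells, at 46.0 (28.4 to 70.2), and in the 16, at 45.4 (26.9 to 71.7), against 122 (108 to 137) outside both gates. Nqo1 did not follow that pattern: it was 61.3 (40.7 to 88.5) in the 46 cells, 62.7 (56.1 to 69.7) with the valve list alone and 55.9 (46.8 to 66.3) outside both.

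Cyp1a1 and Cyp26b1 were found in largely the same Prox1-positive cells. Of the 72 cells with Cyp1a1, 59 also had Cyp26b1 (81.9% of the Cyp1a1 cells and 69.4% of the 85 Cyp26b1 cells), against 26 of the 478 cells without Cyp1a1 (5.44%). These 59 cells held 94.9% of all Cyp1a1 UMIs and 87.8% of all Cyp26b1 UMIs of the class. Cells with only 1 of the genes had few UMIs of it: a median of 1 Cyp1a1 UMI against 7 in cells with both, and 2 Cyp26b1 UMIs against 6. All 72 Cyp1a1 cells lay in graph cluster 15, led by Nts, Clca3a1 and Prox1, and every suffix contributed 4 to 17 of them. The cells with Cyp1a1 were deeper, with a median of 17146.5 UMIs against 8904.5, and 39 of them met the valve list and 1 the capillary list. Over all 550 cells, 225 met the valve list alone and 16 both lists, and deeper cells pass the valve list more easily.

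Split by Cyp1a1, the level of Cyp26b1 was 285 CPM in the 72 detected cells and 9.90 in the 478 undetected cells, a ratio of 28.8 (22.3 to 37.7). By suffix, the detected cells had 87.9, 235 and 677 CPM at the lowest, median and highest, and the undetected cells 0, 5.5 and 35.5. The ranges did not overlap, and the order was the same in 5 of 5 bins of depth. With all cells thinned to 2000 UMIs, Cyp26b1 was seen in 43.1% of detected and 2.54% of undetected cells. When detection of Cyp1a1 was itself called on the thinned counts, the ratio was 7.44, and leaving out 1 suffix at a time gave 19.9 (without suffix 7) to 41.6 (without suffix 3). Within cluster 15 alone (72 against 377 cells) it was 24.1 (18.6 to 31.8), and without the capillary gate 25.7 (19.9 to 33.7).

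The summed levels of the other Ahr genes were also higher in the Cyp1a1 cells, by very different amounts. Ahrr was 23.4 against 0.582 CPM, a ratio of 40.1 (14.5 to 154), and 18 of its 20 Prox1-positive cells were Cyp1a1 cells. It rested on 40 against 4 UMIs, and was higher in 7 of 8 suffixes but in only 2 of 5 depth bins. In bins 1 and 2, the shallowest, neither group had an Ahrr UMI, and in bin 3 it was 0 against 4.08 CPM. Thinned to 2000 UMIs, Ahrr was seen in 2.78% (0.338 to 9.68) against 0.211% (0.00535 to 1.17) of cells, and these intervals overlapped. Nqo1 was 98.1 against 51.1, a ratio of 1.92 (1.59 to 2.31), higher in 8 of 8 suffixes, though the suffix ranges overlapped (62.1 to 142 against 30.2 to 82.1). Tiparp was 323 against 194, at 1.66 (1.50 to 1.84), and Ahr itself 134 against 93.8, at 1.43 (1.22 to 1.66), each higher in 6 of 8 suffixes. For these 3 genes the order did not hold at every depth: Nqo1 and Ahr were higher in 4 of 5 depth bins and Tiparp in 3 of 5. In cells thinned to 2000 UMIs, Tiparp was seen in 31.9% (21.4 to 44.0) of detected against 28.5% (24.5 to 32.8) of undetected cells, Ahr in 27.8% against 15.01% and Nqo1 in 20.8% against 10.6%, and the intervals overlapped for each. Cyp1b1 rested on 10 against 5 UMIs, with a ratio of 8.02 and an interval above 1 (up to 29.9), and was higher in 4 of 8 suffixes. The ratios of the repressor and of the degrading enzyme were thus far larger than that of the receptor. The Aldh1a genes did not separate: Aldh1a1 had a ratio of 0.86 (0.16 to 3.08), Aldh1a3 of 0.40 (0.10 to 1.11), and Aldh1a2 had 0 against 5 UMIs. With detection on thinned counts, intervals above 1 were left for Cyp26b1 and Nqo1 (2.32, 1.06 to 4.56).

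Of the genes of the set, 5 others reached 20 CPM in either group of cells, and 2 of them, Cyp26b1 and Ahrr, were at least 2-fold higher with separate intervals. Both reached 20 CPM only in the detected cells (285 and 23.4 CPM, against 9.90 and 0.582). No member was 2-fold lower. Over all 6602 genes at that level, 1.79% (118) were called higher and 2.73% (180) lower. The median log2 ratio was 0.94 for these 5 genes and -0.11 for all genes. The members were chosen with this split known, and a gene can reach 20 CPM through the group where it is high. So nothing is read from the counts or the medians.

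**Figure D3:**
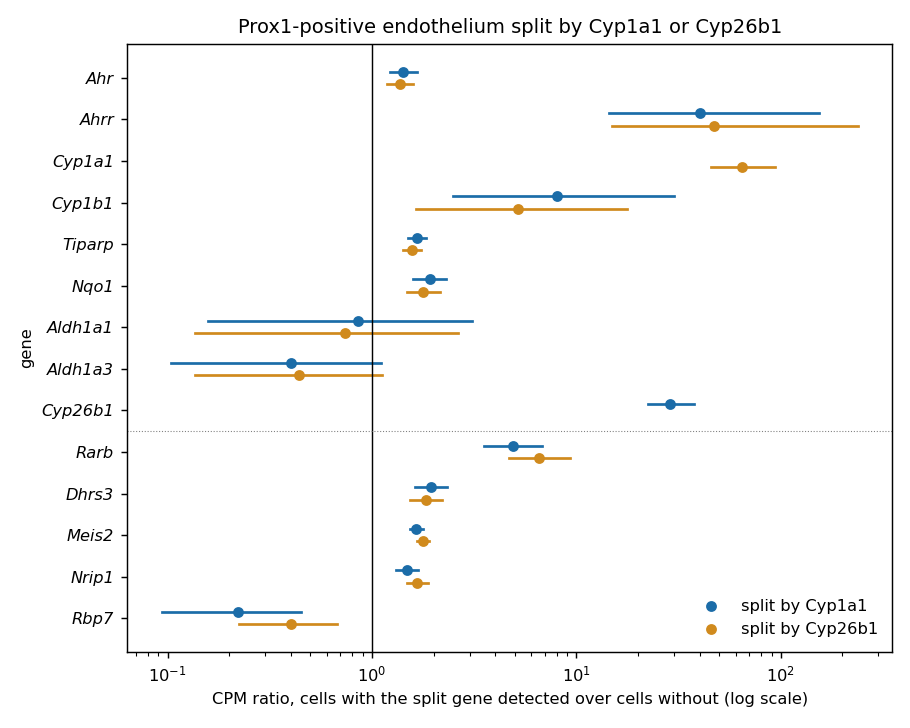
CPM ratio, on a log axis, between Prox1-positive cells with and without the split gene, for the split by Cyp1a1 (72 against 478 cells) and by Cyp26b1 (85 against 465); lines are exact 95% intervals for counting error, and genes under the dotted line are retinoid pathway genes outside the set. Ahrr and Rarb lie above 1 in both splits, while the intervals of Aldh1a1 and Aldh1a3 include 1; Aldh1a2, with 5 UMIs, is not drawn.

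The split by Cyp26b1, which shares most of its cells with the first and is no independent evidence, gave the same order in the pooled levels. Cyp1a1 was 329 CPM in the 85 detected cells and 5.11 in the 465 undetected cells, a ratio of 64.4 (45.6 to 93.8), with suffix values of 187, 296 and 958 against 0, 3.30 and 10.6. The groups did not overlap. The ratio was 21.4 when 2 Cyp26b1 UMIs were asked for and 7.00 with detection on thinned counts. Ahrr, on 41 against 3 UMIs, had a ratio of 47.0 (95% interval 15.0004 to 237), Nqo1 1.78 (1.48 to 2.14), Tiparp 1.57 (1.42 to 1.73) and Ahr 1.37 (1.18 to 1.59). Ahrr was higher in 7 of 8 suffixes, Nqo1 in 8, Tiparp in 6 and Ahr in 5. Ahrr, Nqo1 and Ahr were each higher in 3 of 5 depth bins and Tiparp in 5 of 5. The intervals of the shares in thinned cells overlapped for each of these genes. Here 1.85% of 6634 genes (123) were called higher and 2.53% (168) lower, and 2 of 5 members, Cyp1a1 and Ahrr, were among the higher. Both reached 20 CPM only in the detected cells, so nothing is read from that count. Of the genes called higher, 103 were common to both splits (87.3% of one list and 83.7% of the other).

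Among retinoid genes outside the set, Rarb was called higher, beside 1.79% of all genes. It reached 20 CPM only in the detected cells. It is in 2 of the lists, and was 1 of 9 receptors and corepressors called and, with the chosen member Cyp26b1, 1 of 2 called among 6 retinoic acid targets. Rarb, a retinoic acid receptor that is itself a retinoic acid target, was 51.4 against 10.5 CPM, a ratio of 4.90 (3.55 to 6.79). It was higher in 8 of 8 suffixes and in 5 of 5 depth bins. In bins 1 and 2, the shallowest, the detected cells held only 2 Rarb UMIs per bin. The levels in bin 2 were close, at 24.1 against 23.0 CPM. Dhrs3, which returns retinaldehyde to retinol and answers to retinoic acid, was 105 against 53.7, at 1.94 (1.62 to 2.33). Its ratio was 2.42 without the capillary gate and 2.61 within cluster 15, so its call at 2-fold depends on which cells enter. Meis2 had a ratio of 1.65 (1.53 to 1.77), Nrip1 of 1.48 (1.31 to 1.68) and Tgm2 of 1.18 (1.12 to 1.24). Rbp7, a retinol-binding protein of blood capillaries, was lower, at 4.67 against 21.1 (0.22, 0.09 to 0.45).

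The Nrf2 and stress lists held no called gene. Among 7 Nrf2 target genes at 20 CPM, none was called either way (median log2 ratio 0.17). The glutathione synthesis genes Gclc and Gclm had ratios of 0.92 (0.78 to 1.07) and 1.20 (0.99 to 1.45), Txnrd1 0.86 (0.72 to 1.02), and Osgin1, under the floor at 26 against 17 UMIs, 6.13 (3.20 to 12.0). None of 12 dissociation and stress genes was called (median 0.32). Fos had a ratio of 1.44 (1.39 to 1.50), or 1.95 without the capillary gate, and Hspa1a 1.08 (0.77 to 1.48). The receptor's partner Arnt was at 1.08 (0.93 to 1.25) and its chaperone Hsp90ab1 at 1.07 (1.03 to 1.11).

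Levels were also compared by the number of Cyp1a1 UMIs in a cell. In the 478 cells with 0, the 17 with 1, the 32 with 2 to 9 and the 23 with 10 or more, Cyp26b1 was 9.90, 90.9, 347 and 284 CPM. Rarb was 10.5, 51.1, 51.3 and 51.5. Ahr was 93.8, 136, 158 and 119. Cells with a single Cyp1a1 UMI were not the deeper ones, with a median of 7400 against 8904.5 UMIs, and their Rarb interval overlapped those of the cells with more. Cyp26b1 was lower in them (51.9 to 148) than in cells with 2 to 9 (300 to 399).

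**Figure D4:**
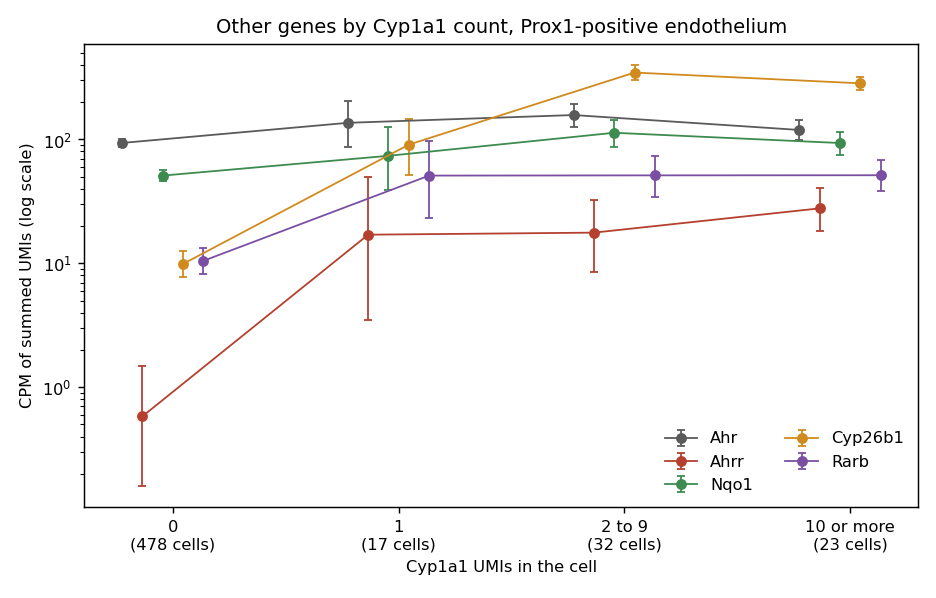
CPM on a log axis of 5 genes in Prox1-positive cells grouped by their Cyp1a1 UMIs; points are summed counts and bars exact Poisson 95% intervals, and points are shifted sideways for legibility. Rarb is 10.5 CPM in cells without Cyp1a1 and 51.1 to 51.5 in the other 3 groups.

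The genes most different between the Cyp1a1 groups, by the interval bound nearest 1, were led by Cyp26b1 and Ahrr. They were followed by Stbd1, a glycogen-binding protein, at 118 against 8.59 CPM (13.7, 10.2 to 18.7), and by the ligands Bmp2 (14.8, 9.12 to 24.8) and Inhbb (11.5, 7.88 to 17.1). Then came Khdrbs3 (10.7), Pcdh9 (11.3), the alarmin Il33 at 258 against 35.1 (7.35, 6.27 to 8.64), Adcy7 (9.00) and the parathyroid hormone receptor Pth1r (10.0). All 10 ratios kept an interval above 1 without the capillary gate and within cluster 15, and 8 of the 10 were among the 10 of the Cyp26b1 split, which added Hgf at 7.06 (5.73 to 8.74). Each was higher in at least 6 of 8 suffixes. The 10 genes of the Cyp1a1 split were picked as the most different in these same cells. All but Il33 reached 20 CPM only in the cells with Cyp1a1. All 72 of those cells lay in cluster 15, and 59 of them were also Cyp26b1 cells. So nothing is read from the kept intervals, the suffix counts or the genes shared with the Cyp26b1 split.

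Of the 10 genes most reduced in the Cyp1a1 cells, 4 had their level mainly in capillary-gated cells and 4 in blood endothelium. Ccl21a (0 against 7900 UMIs), Lyve1 (1.75 against 441 CPM), Piezo2 and Scn3a were at 8971, 3501, 599 and 232 CPM in the 62 cells that met the capillary list, and without those cells Ccl21a was 0 against 39.8, Lyve1 was 1.19 against 6.28 and Piezo2 0.597 against 0.826. Mecom, Cytl1, Rasa4 and Aqp1 were at 647, 95.2, 292 and 1579 CPM in blood endothelium. Within cluster 15 Mecom was 0.584 against 0.727 and Rasa4 0.584 against 0.908, and Aqp1 turned round, to 12.8 against 1.27 (10.1, 4.17 to 28.0). Within that cluster Meox2 (2.34 against 101), Htr2b (0.584 against 29.1) and Ccl21a (0 against 41.4) were still lower. Over the marker lists, the 5 capillary markers summed to 105 CPM in the Cyp1a1 cells and 1941 in the others. The 5 valve markers summed to 491 and 570, and 10 blood endothelial markers to 5329 and 4727. For 6 fibroblast markers the sums were 236 and 258, and for 8 macrophage markers 85.8 and 117. In the Cyp1a1 cells Ccl21a was the capillary marker at 0.

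In blood endothelium few cells had both enzymes. Of 31 cells with Cyp1a1, 4 (12.9%) had Cyp26b1, and 12 of the 31 came from 1 suffix. Cyp26b1 had a ratio of 3.11 (1.44 to 6.17) between Cyp1a1 cells and the rest, on 11 against 40 UMIs. Split the other way, Cyp1a1 had a ratio of 1.17 (0.56 to 2.22). Ahrr had no UMI in either group, Nqo1 a ratio of 0.75 (0.09 to 2.97), Tiparp 0.80 (0.49 to 1.24) and Ahr 1.36 (0.87 to 2.05), so none of these was separated. Rbp7 went the other way from Prox1-positive endothelium, at 623 against 311 CPM (2.01, 1.60 to 2.49). The Cyp1a1 cells of blood endothelium had more Rgcc, a capillary marker (1763 against 740 CPM), and less Selp, a venous one (1832 against 4333), 2 genes singled out after their values were seen. They were not deeper than the others, with a median of 4131 against 5194.5 UMIs. The difference between the endothelia in these ratios was not tested.

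Among fibroblasts, Cyp1b1 and the retinoid enzymes followed subsets. The Tcf21/Asb4/Rspo3 subset (353 cells) had 284 CPM of Cyp1b1 (268 to 300; suffixes 199, 269 and 359), with a UMI in 80.2% of cells, and the Pi16/Dpp4 adventitial subset (5692 cells) had 26.5 (25.3 to 27.7; suffixes 18.1 to 33.7). These ranges did not overlap. In the Tcf21 subset Cyp1b1 ran from 290 to 359 in suffixes 1 to 4 and from 199 to 248 in suffixes 5 to 8. The same Tcf21 subset had 84.3 CPM of Aldh1a2 (75.8 to 93.4), against 11.6 (10.8 to 12.4) in the Pi16/Dpp4 subset, with suffixes from 40.9 to 254 against 7.53 to 17.2. Aldh1a3 was at 39.2 (33.5 to 45.6) and 30.9 (29.6 to 32.2) in these 2 subsets and at 3.50 or lower in the Tspan11/Pax1, Ngfr/Fgf10 and Col8a1/Adamts16 subsets. Aldh1a1 was broad, from 69.9 (64.2 to 76.0) in the Ngfr/Fgf10 subset to 157 (143 to 173) in the Tspan11/Pax1 subset.

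Cyp26b1 in fibroblasts varied more between suffixes than between subsets. It was 73.1 CPM (67.2 to 79.4) in the Ngfr/Fgf10 subset, 59.8 in the Tcf21 subset and 24.8 in the Pi16/Dpp4 subset, but the suffixes of these 3 ran from 1.69 to 175, 0 to 236 and 6.51 to 92.4. The highest value in each of the 3 was that of suffix 2. Cyp1b1 in the Ngfr/Fgf10 cells of that suffix was 56.6 against a median of 63.2. In the Tcf21 cells it was 306 against a median of 269. In the Pi16/Dpp4 cells it was 33.7 against 28.8, the highest suffix value of that subset. So Cyp1b1 in suffix 2 lay below the median in the first subset and above it in the others.

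**Figure D5:**
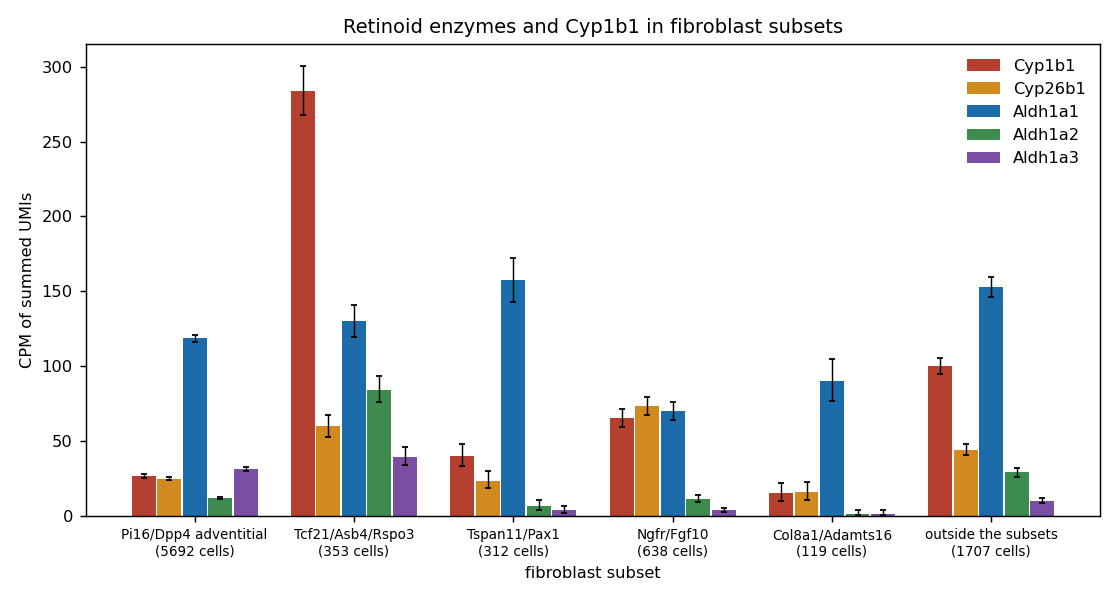
CPM of Cyp1b1, Cyp26b1 and the 3 Aldh1a genes in 5 marker-gated fibroblast subsets and the fibroblasts outside them; bars are summed counts and error bars exact Poisson 95% intervals. Cyp1b1 and Aldh1a2 are highest in the Tcf21/Asb4/Rspo3 subset, at 284 and 84.3 CPM.

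The wider pathways set these levels in context, class by class. Among the genes for the receptor and its partners, those at 20 CPM in Prox1-positive endothelium included Ahr, Arnt (125 CPM), Hsp90ab1 (1957), Hsp90aa1 (398), Ptges3 (210), Ncoa1 (78.6) and Nedd8 (172). Arnt2 was highest in Schwann cells (53.2). Of 15 Ahr target genes, 4 reached it: Cyp1a1, Nqo1, Tiparp and Nfe2l2 (269), which encodes Nrf2. Among the others, Ido1 was highest in epithelial cells (761), Slc7a5 in mast cells (362) and Cyp1b1 in fibroblasts, and Cyp1a2, the liver relative of Cyp1a1, had no UMI in Prox1-positive endothelium. Of 11 Nrf2 targets, 7 reached it, among them Gclc (120), Gclm (73.7), Txnrd1 (105), Gsr (29.1), Me1 (29.1) and Prdx1 (306). Nqo1 was the only one of the 11 whose highest class was Prox1-positive endothelium: Gclc, Gclm, Gsr, Me1, Prdx1 and Osgin1 were highest in epithelial cells, Hmox1 and Txnrd1 in macrophages, Srxn1 in fibroblasts and Slc7a11 in dendritic cells.

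Of 8 retinoic acid synthesis genes, only Adh1 reached 20 CPM in Prox1-positive endothelium (22.1), although all 8 did so in some class. Rdh10, the main retinol dehydrogenase, was highest in mesothelial cells at 46.0 (42.1 to 50.1), as was Dhrs9 at 88.7 (83.3 to 94.4), so mesothelial cells led in 4 of the 8. Of 5 genes for degradation and return, Cyp26b1 and Dhrs3 (63.9; highest in macrophages, 188) reached it, and Cyp26a1 and Cyp26c1 did not exceed 1.05 in any class of at least 50 cells. Among uptake and binding genes, Fabp5 (126) reached it, with its highest level in blood endothelium (530). Rbp7 was highest in blood endothelium (336), Lrp1 in fibroblasts (516), and Stra6, Rbp4 and Lrp2 in mesothelial cells. Receptors and corepressors at 20 CPM included Rara (51.0), Rarg (30.8), Rxra (24.1), Rxrb (24.7), Nr2f2 (489), Ncor1 (220) and Nrip1 (147). Of 10 retinoic acid targets, 4 reached it, and Tgm2, a transglutaminase, was highest in Prox1-positive endothelium at 890 (870 to 910), against 335 in blood endothelium. Meis2 was 429 (415 to 443) against 55.3, and Rarres2 was highest in mesothelial cells (1908).

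The genes whose levels followed each enzyme across classes were found by Pearson correlation of log2(CPM + 1) over the 14 classes of at least 50 cells, among 11585 genes. These values describe 14 points from 1 pooled sample that differ in depth and cell number. For Cyp1a1 the nearest were Gpr182 (0.997), Sox18 (0.985), Cytl1, Grrp1 and Arhgef15 (0.982 each), each highest in an endothelial class. For Cyp26b1, present in endothelium and fibroblasts, they were Hmcn1 (0.927), Slc39a14 (0.904), Dchs1 (0.902), Car8 (0.878) and Ace (0.865). Aldh1a1 was followed by Htra1, then Meg3 (0.973), Rarres2 (0.967), Col6a1 (0.958) and Cdh11 (0.955), and Aldh1a2 by Abi1 (0.927), Calr (0.919), Il18 (0.917), Mmp19 (0.917) and Pdia3 (0.872). For Aldh1a3 they were Irx5 (0.962), Clic6 (0.920), Rgs20 (0.909), Snhg11 (0.883) and Sox9 (0.878), each highest in epithelial cells.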

How the data were processed

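The deposited matrix holds raw UMI counts per gene and barcode, and per the file headers it is output of Cell Ranger 7.1.0. Seurat 4.3.0.1 (its role not given in the sources used here) and mm10 are named in the submitters' processing notes. Gene positions came from GENCODE M21 and promoter windows from RefSeq on GRCm38.p6. The members, lists and gates were chosen with earlier results of these data known.

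Barcodes with at least 500 UMIs, 300 genes and under 15% mitochondrial UMIs were kept (380 removed), and 719 doublets (3.04%) scored by scrublet in scanpy 1.11.5 were removed. A cell joined a class with at least 3 of its markers detected and a lead of 20 percentage points over unrelated classes, with Col1a1, Col1a2 and Dcn counted from 3 UMIs; related classes needed only the higher share. Fibroblast subsets needed 2 markers. The 12 multiplexing tags were not used. Intervals were computed with scipy 1.17.1: exact Poisson for CPM, conditional binomial for ratios and Clopper-Pearson for shares. Cells are not replicates, so no p-value was made. A gene was called in a split at 20 CPM or more in either group, a 2-fold difference and separate intervals. The split calls were also run on simulated counts with Poisson error only. That setting held no variation between cells or suffixes and no choice of cells by a detected gene, so it does not bear on those.

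Named genes were the 10 members, list genes at 20 CPM in Prox1-positive endothelium or with their highest class (a few are not reported here), the 10 genes most different in each direction of each split, and the 5 genes most like Cyp1a1, Cyp26b1 and the Aldh1a genes. Graph clusters (30, Leiden resolution 1) served as an alternative. The comparison of female with male mice was not run, because barcodes name neither mouse nor sex.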

Additional observations from a re-analysis of the deposited data

How the results depend on the processing

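No paired analysis was possible because no test was made and no label ties barcodes to the numbered animals. Orders within barcode suffixes are given as counts instead. The alternatives on barcode suffixes, the capillary gate and cluster 15 were chosen after seeing the data. No called difference of a member between cells with and without Cyp1a1 or Cyp26b1 reversed under the alternatives. Within depth bins, Ahrr was 0 against 4.08 CPM in bin 3 of the Cyp1a1 split. Detection called on counts thinned to 2000 UMIs, which leaves far fewer UMIs, lowered the other members with intervals above 1 from 6 to 2 in the Cyp1a1 split and from 6 to 3 in the Cyp26b1 split. It lowered the Cyp26b1 ratio from 28.8 to 7.44, the Cyp1a1 ratio from 64.4 to 7.00, and the genes called lower to 72 and 70. Asking for 2 Cyp26b1 UMIs gave a Cyp1a1 ratio of 21.4. The cause was not tested. Leaving out each suffix gave ratios of 19.9 to 41.6 for Cyp26b1, 39.1 without suffix 4, and 48.9 to 85.9 for Cyp1a1.

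In the Cyp1a1 split, 118 genes were called higher and 180 lower, against 180 and 359 with a 5 CPM minimum, 73 and 68 with 50 CPM, 262 and 520 at 1.5-fold and 51 and 75 at 3-fold. In the Cyp26b1 split, 123 and 168 became 197 and 317, 73 and 67, 275 and 488, and 56 and 57. Leaving out a suffix gave 113 to 130 higher and 170 to 217 lower in the first, and 118 to 134 and 160 to 192 in the other.

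Levels that moved over 1.5 times were Ahrr in Prox1-positive endothelium (3.13 CPM as the mean over cells) and Aldh1a3 in epithelial cells (87.8 as that mean), besides those given with the results. With graph clusters, Aldh1a3 was highest in fibroblasts (23.3). The highest thinned share of Cyp1a1 cells was in Prox1-positive endothelium at 1000 UMIs and in blood endothelium at 2000 and 3000. The suffix spread of Cyp1a1, Cyp26b1 and Ahrr limits these levels more than counting error does.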
